A study of Oryza sativa Japonica Group with 4 samples.

Results

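ERF24, ERF25 and EREBP1 are rice genes for transcription factors of the AP2/ERF superfamily, whose members bind short DNA elements through an AP2/ERF domain. They were taken by name: each probe set that the annotation of the Affymetrix Rice Genome Array pairs with exactly 1 gene was kept if that gene is called ERF24, ERF25 or EREBP1 in the platform annotation or in RefSeq. This gave 3 genes with 4 probe sets, of 17905 genes with 22436 such probe sets in the series. ERF24 (gene ID 4347620) lies on chromosome 9, and ERF25 (4330306) and EREBP1 (4330935) lie on chromosome 2. ERF24 and ERF25 have 1 probe set each and EREBP1 has 2, a bright and a dim one. The genes had been singled out because they had the smallest p-values among ethylene genes in the contrast described here, so their own differences are given without a test.

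The study compared the lamina joint, the hinge between leaf blade and sheath that sets the leaf angle, of ila1 plants and of their wild type Zhonghua11 (ZH11), both japonica rice at the tillering stage. ila1 is a mutant with a wider leaf angle, and the ILA1 protein is a Raf-like MAP kinase kinase kinase. Each genotype was measured on 2 arrays, which the labels call biological replicates. Which allele the plants carry, how many plants make a replicate and at what temperature they grew is not stated in the sources used. P-values therefore measure the spread between these samples, which may be technical.

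The 3 genes are not all of the same group. RefSeq lists ERF24 also as DREB1A and CBF3, and ERF25 also as DREB1G, which places both in the DREB1 (CBF) group. Factors of this group bind the dehydration-responsive (CRT/DRE) element, are known in Arabidopsis and rice for rapid induction by cold, and activate genes that protect cells in cold, drought and salt. EREBP1 belongs to the ethylene-responsive element binding proteins, which are named for binding the GCC box of ethylene-induced defence genes in tobacco. In rice the EREBP1 protein is a substrate of the MAP kinase BWMK1. Ethylene itself is made from ACC by ACC synthases and ACC oxidases. It is sensed by receptors that repress the pathway, and its signal passes through EIN2 to EIN3-like factors, which activate ERF genes.

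Median signal, a linear intensity in arbitrary units, was 53.6 to 57.9 on the 4 arrays. The arrays of a genotype differed by a median of 0.10 (ZH11) and 0.18 (ila1) on the scale of log2(signal + 16), over the 34355 probe sets tested. Of these, 10.4% were lower and 4.71% higher in ila1 at a limma adjusted p under 0.05. The median log2 difference was -0.07 over all tested probe sets. Of the lamina joint markers, LG1, whose product is needed to form the ligule and lamina joint, read 312 and 340 in ZH11 and 318 and 234 in ila1. LG1, BU1 and LIC, 3 of the 4 genes of that marker list, were measured on the arrays, and none passed the test. Summed signals of 3 leaf blade photosynthesis genes were 17680 and 18421 in ZH11 and 13429 and 19815 in ila1, so that ila1 replicate 1 was the lowest array. The low sum came from CAB2R (9498 and 10034 in ZH11, 4562 and 9277 in ila1). RBCS went the other way (8173 and 8377 in ZH11, 8860 and 10531 in ila1), and RBCS1 was too dim to be tested.

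The DREB1 gene ERF24 (DREB1A) gave signals of 2929 and 2723 in ZH11, against 626 and 796 in ila1. Both ila1 arrays lay far below both ZH11 arrays. Its mean signal was 2826 ± 146 in ZH11 and 711 ± 120 in ila1 (SD, n = 2 each), 3.93-fold lower in ila1, a log2 difference of -1.98 ± 0.15 (SE). The ila1 arrays differed by 0.34 on the log2 scale, more than the median probe set, and log2 differences over the 4 possible pairings of ila1 with ZH11 ran from -2.20 to -1.75.

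ERF25 (DREB1G), the other DREB1 gene, read 3291 and 3094 in ZH11 against 748 and 726 in ila1. The genotypes did not overlap, and the ila1 arrays lay 0.044 apart on the log2 scale. Mean signal was 3192 ± 139 in ZH11 and 737 ± 16.1 in ila1 (SD, n = 2 each), 4.26-fold lower in ila1, a log2 difference of -2.09 ± 0.10 (SE). Among all tested probe sets, 440 (1.28%) had a more negative difference than ERF25 and 533 (1.55%) a more negative one than ERF24.

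EREBP1 differed by less. Its brighter probe set read 5494 and 5577 in ZH11 and 3250 and 3096 in ila1, again without overlap. The means were 5535 ± 58.9 and 3173 ± 109 (SD, n = 2 each), 1.74-fold lower in ila1, a log2 difference of -0.80 ± 0.08 (SE). A more negative difference was found for 8.48% of tested probe sets. The dimmer probe set of EREBP1 did not show this difference: it read 85.8 and 81.8 in ZH11 and 88.4 and 94.3 in ila1, a log2 difference of 0.10 ± 0.11 (SE). Both probe sets are paired with the same gene, and which of them reads the transcript better was not tested.

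**Figure D1:**
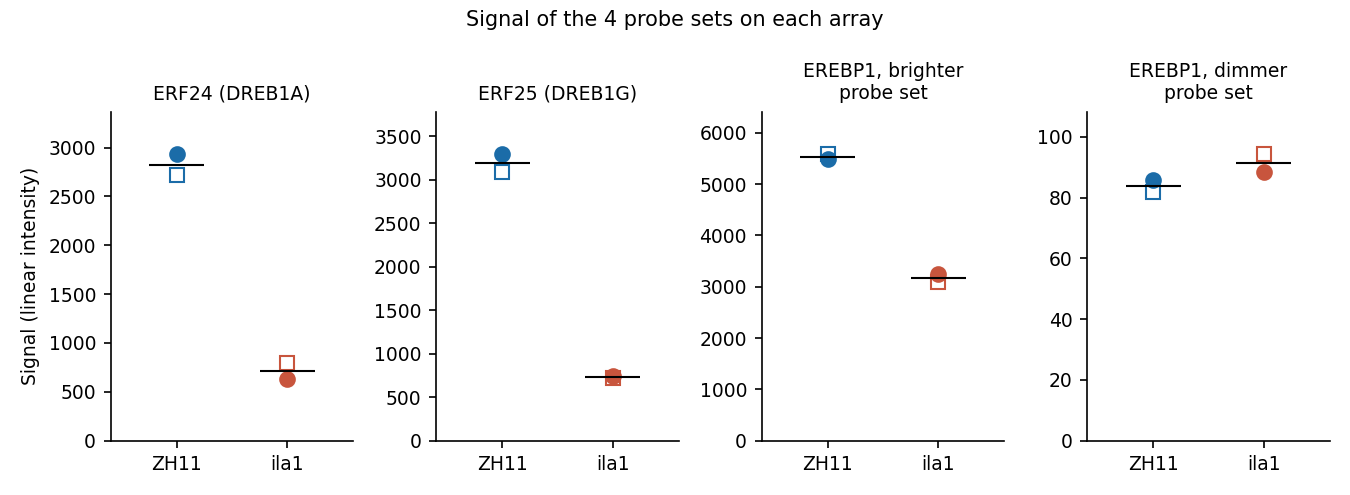
Signal (linear intensity) of each probe set on the 4 arrays, with filled circles for replicate 1, open squares for replicate 2 and a line at the mean of each genotype (n = 2). The mean of ERF24 is 2826 in ZH11 and 711 in ila1, that of ERF25 is 3192 and 737, the brighter EREBP1 probe set is 1.74-fold lower in ila1, and the dimmer one is not lower.

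In all, 3 of the 4 probe sets had both ila1 arrays below both ZH11 arrays, as did 40.6% of all tested probe sets. The remaining one, the dim EREBP1 probe set, had both ila1 arrays above both ZH11 arrays, as did 26.4%. The probe sets of ERF24 and ERF25, 2 of the 4, were at least 2-fold lower in all 4 pairs of arrays, against 4.26% of all tested. These counts describe genes that this contrast had chosen and are read no further. With either ZH11 array left out, the log2 differences of ERF24 and ERF25 lay between -2.13 and -1.92. This narrow range follows from the closeness of the ZH11 arrays, 0.11 (ERF24) and 0.09 (ERF25) apart on the log2 scale. It is no test of the differences. The ila1 replicate 1 array, lowest for the photosynthesis sum, was also lowest for the summed signals of 8 epidermis genes (14019 and 14542 in ZH11, 11216 and 15822 in ila1). Of these 8, LTP2-B, LTP and LTPL1 were lowest on it, while WSL3, WSL6 and WSL8 read above both ZH11 arrays (780, 471 and 487). The sums of 3 lamina joint genes (610 and 650 in ZH11, 623 and 558 in ila1) were not lowest on it. Nor were those of 10 genes of dividing cells (1291 and 1228 in ZH11, 1448 and 1244 in ila1). ERF24 was lower on ila1 replicate 1 than on replicate 2 (626 and 796), while ERF25 (748 and 726) and EREBP1 (3250 and 3096) were slightly higher on it. The part of these marker genes in the differences of ERF24, ERF25 and EREBP1 was not tested. Fewer cells of a type and less RNA per cell cannot be told apart in these samples.

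Other DREB1 genes were also measured. RefSeq names 9 DREB1 genes, of which 5 have a probe set here, ERF24 and ERF25 among them. Of the other 3, DREB1E and DREB1B fell and DREB1C did not pass. For comparison over 1 probe set per gene, 12.6% of 15633 tested genes were lower and 5.67% higher in ila1. DREB1E read 705 and 657 in ZH11 against 189 and 301 in ila1, a log2 difference of -1.45 ± 0.23 (limma adjusted p = 0.0214). DREB1B, known in rice for induction by cold, read 3751 and 3265 against 1770 and 2084, a log2 difference of -0.86 ± 0.13 (limma adjusted p = 0.0188). For both genes the 2 ila1 arrays lay below the 2 ZH11 arrays. DREB1C was dim, at 47.5 and 47.3 in ZH11 and 38.8 and 36.7 in ila1 (-0.24 ± 0.08, limma adjusted p = 0.124). DREB1 genes are close relatives, and hybridisation of one gene's RNA to another's probes was not tested.

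DREB2 factors, which bind the same element and are known for drought and heat responses, did not pass. DREB2A read 163 and 161 in ZH11 and 122 and 61.2 in ila1 (-0.78 ± 0.29, limma adjusted p = 0.135), and DREB2B differed by 0.12 ± 0.12 (limma adjusted p = 0.5). Among the AP2 group, AP2-1 (also RSR1), a regulator of starch synthesis genes in rice seed, rose from 133 and 175 to 340 and 476, a log2 difference of 1.31 ± 0.22 (limma adjusted p = 0.0243). AP2-5 (also SHAT1), a gene of the seed abscission zone, differed by 0.24 ± 0.16 on its brightest probe set, which did not pass, and rose by 0.61 ± 0.09 on another (limma adjusted p = 0.0189).

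Of 12 tested genes that matched the AP2/ERF names, 3 fell and 2 rose, beside 12.6% lower and 5.67% higher among all tested genes. Their median log2 difference was -0.19, against -0.02 over all tested genes. That median was 0.029 both for quantile-normalized arrays and for arrays scaled on the hybridization controls, while the counts stayed at 3 and 2. The median over all tested probe sets was 0.03 and 0.12 under these scalings, in that order, against -0.07 as deposited. The names ANT, SK1, SK2, IDS1 and MFS1 also belong to genes of other families, or could not be tied to an AP2/ERF gene here. Without these 5 genes, chosen after values were seen, 7 were left, of which DREB1E and DREB1B fell and AP2-1 rose.

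**Figure D2:**
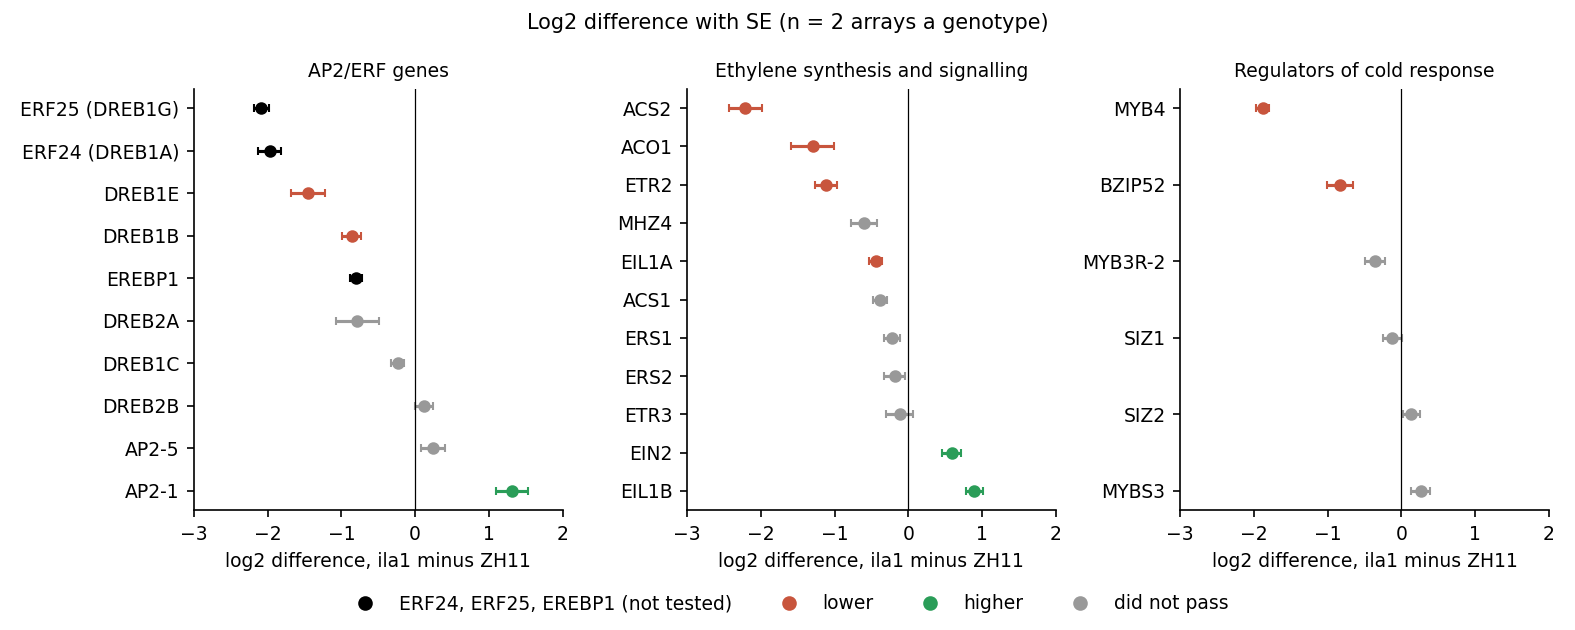
Log2 difference, ila1 minus ZH11, with its SE (n = 2 arrays a genotype) for AP2/ERF genes, ethylene genes and regulators of cold response, 1 probe set per gene. ERF25 and ERF24 have the most negative values of the AP2/ERF panel, DREB1E and DREB1B lie between them and EREBP1, and AP2-1 is the only gene of that panel that rose.

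Genes of ethylene synthesis and signalling moved in both directions. Of 11 tested, 4 fell and 2 rose, against 12.6% and 5.67% of all tested genes, and the median log2 difference was -0.38. That median was -0.25 after quantile normalization, -0.21 when arrays were scaled on the hybridization controls and -0.23 with a pseudocount of 64. The median over all tested probe sets moved too, from -0.07 as deposited to 0.03, 0.12 and -0.05 in the same order. After quantile normalization or scaling on the controls, and also without a mean-variance trend, 2 genes fell instead of 4. At the synthesis step ACS2, an ACC synthase, read 159 and 255 in ZH11 and 30.6 and 31.6 in ila1, a log2 difference of -2.21 ± 0.23 (limma adjusted p = 0.00713). ACO1, an ACC oxidase, read 5448 and 6218 against 1756 and 3164 (-1.30 ± 0.29, limma adjusted p = 0.0462). Its adjusted p was 0.0501 to 0.0568 under the 3 other scalings, which ended the call. The ACO1 call also ended without a mean-variance trend (limma adjusted p = 0.0516). ACS1 did not pass, at -0.38 ± 0.10 (limma adjusted p = 0.0658).

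Of the receptors, ETR2, whose rice protein lowers ethylene sensitivity, fell from 973 and 893 to 470 and 379, a log2 difference of -1.11 ± 0.15 (limma adjusted p = 0.0145). ERS1, ERS2 and ETR3 differed by -0.22 ± 0.11, -0.18 ± 0.14 and -0.12 ± 0.18, and none of them passed. Their sign turned under some scalings: ERS1 came to 0.040 after quantile normalization, and ERS2 to 0.025 and ETR3 to 0.093 when arrays were scaled on the hybridization controls. ETR4 was too dim to be tested.

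Downstream of the receptors, EIN2 rose from 243 and 249 to 402 and 355, a log2 difference of 0.59 ± 0.13 (limma adjusted p = 0.0464). The EIN2 call ended when no probe set was filtered out (limma adjusted p = 0.0591). Of the EIN3-like factors, EIL1B rose from 1526 and 1368 to 2825 and 2583 (0.90 ± 0.11, limma adjusted p = 0.0119). EIL1A fell from 5651 and 6131 to 4248 and 4406 (-0.44 ± 0.08, limma adjusted p = 0.0322). It also fell on a second, dimmer probe set (-0.78 ± 0.15). The call of the brighter EIL1A probe set ended after quantile normalization (-0.25) and without a mean-variance trend (limma adjusted p = 0.0595). The calls of both EIL1A probe sets (-0.22 and -0.57) ended when arrays were scaled on the hybridization controls. MHZ4, a gene of abscisic acid synthesis found through its altered ethylene response, differed by -0.60 ± 0.18 and did not pass (limma adjusted p = 0.0875). All calls of the AP2/ERF and ethylene genes were lost when ZH11 replicate 1 was left out, and all but that of ACS2 (-1.89) when ZH11 replicate 2 was.

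Genes around the DREB1 factors were taken as further lists after these values had been seen. Of 6 genes that regulate cold response, all tested, 2 fell and 0 rose, beside 12.6% lower and 5.67% higher among all tested genes. MYB4, a MYB factor of cold response in rice, read 6253 and 5849 in ZH11 and 1609 and 1655 in ila1 (-1.88 ± 0.09, limma adjusted p = 0.0022), and its second probe set fell by 2.41 ± 0.15. BZIP52, a repressor of cold and drought tolerance in rice, fell by 0.83 ± 0.18 (limma adjusted p = 0.0437), a call that ended under each of the 3 other scalings. MYBS3, which represses DREB1 genes late in the cold response of rice, read 990 and 1170 against 1273 and 1314 and did not pass (0.26 ± 0.13, limma adjusted p = 0.217). MYB3R-2 (-0.36 ± 0.13), SIZ1 (-0.12 ± 0.13) and SIZ2 (0.14 ± 0.12) did not pass either.

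Of 15 tested genes of cold, drought and salt protection, 4 fell and 1 rose, beside 12.6% lower and 5.67% higher among all tested genes, and the median log2 difference was -0.05. The trehalose-6-phosphate phosphatase genes TPP1, TPP7 and TPP9, whose enzymes make the protective sugar trehalose, and the dehydrin gene DHN1 fell. TPP1 read 6251 and 6195 in ZH11 and 2271 and 1100 in ila1 (-1.97 ± 0.34, limma adjusted p = 0.0257). The log2 difference was -1.68 ± 0.09 for TPP7 (limma adjusted p = 0.00238) and -1.67 ± 0.22 for TPP9 (limma adjusted p = 0.0135). DHN1 read 7226 and 7719 against 2923 and 3791 (-1.16 ± 0.14, limma adjusted p = 0.0115), while its 2 dim probe sets did not pass (-0.12 ± 0.16 and 0.18 ± 0.12). LEA19, a late embryogenesis abundant protein gene, rose from 23.4 and 22.4 to 68.5 and 90.8 (1.29 ± 0.14, limma adjusted p = 0.00789). RAB16B read 48.1 and 35.0 in ZH11 and 84.4 and 164 in ila1. Its log2 difference of 1.24 ± 0.31 did not pass as deposited (limma adjusted p = 0.0592). RAB16B passed as higher when arrays were scaled on the hybridization controls (1.41). RAB21, a dehydrin gene known for induction by abscisic acid, read 369 and 205 in ZH11 and 316 and 2371 in ila1, so that 1 ila1 array stood high and the genotypes overlapped. Leaving out either ZH11 array ended every call among these cold and stress genes.

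No probe set is paired with BWMK1, the kinase known to act on EREBP1, in the annotation used here. Pathogenesis-related genes, a group known in tobacco for GCC boxes, were mostly chitinases. Of 13 tested genes that matched their names 5 fell and 0 rose, beside 12.6% lower and 5.67% higher among all tested genes. Without the cellulases named GLU, left out after values were seen, 8 were left, of which the chitinases CHT10 (-0.61 ± 0.13, limma adjusted p = 0.0405) and CHT7 (-0.51 ± 0.11, limma adjusted p = 0.0465) fell. Both calls ended under each of the 3 other scalings, and that of CHT7 also without the filter or without the mean-variance trend. CHT6 had the most negative difference of these chitinases, at 2018 and 2287 in ZH11 against 230 and 853 in ila1, but its ila1 arrays lay far apart and it did not pass (-2.23 ± 0.59, limma adjusted p = 0.0695). Its log2 difference was -1.32 without ila1 replicate 1 and -3.14 without ila1 replicate 2. CHT3 was also lower on ila1 replicate 1 (199) than on replicate 2 (747), where ZH11 read 823 and 744. PBZ1, a pathogenesis-related gene of rice, read 6254 and 5366 against 7344 and 6148 and did not pass (0.21 ± 0.13, limma adjusted p = 0.295).

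The profiles of the 3 genes over the 4 arrays were compared with those of 2165 other genes that have a name, as the distance between log2 values centred on each gene's mean. With 4 arrays this likeness mostly reflects the size of the genotype difference, and it is given as a description. Nearest to ERF24 were ABCG44 (distance 0.153), MYB4 (0.232), the GRAS gene CIGR2 (0.241), AT9 (0.26) and the calmodulin-like gene CML20 (0.272). Nearest to ERF25 were TIFY11A, a JAZ repressor of jasmonate signalling (0.121), the ABC transporter gene STAR1 (0.131), the cellulase gene GLU11 (0.133), the auxin-conjugating enzyme gene GH3-8 (0.152) and AT9 (0.186). AT9 was thus near both DREB1 genes, at 2447 and 2417 in ZH11 and 636 and 632 in ila1. ERF25 ranked 8 by closeness to ERF24, and ERF24 ranked 19 by closeness to ERF25.

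None of these was among the 5 genes nearest to EREBP1, which were the 4-coumarate-CoA ligase gene 4CL4 (distance 0.0228), SAP11 (0.0383), the protein phosphatase gene PP2C28 (0.0436), the D-type cyclin gene CYCD6-1 (0.0736) and the MAP kinase kinase gene MAPKK1 (0.0758). MAPKK1 read 3626 and 3651 in ZH11 and 2006 and 1958 in ila1, close in proportion to EREBP1. ERF24 and ERF25 ranked 1780 and 1859 by closeness to EREBP1.

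**Figure D3:**
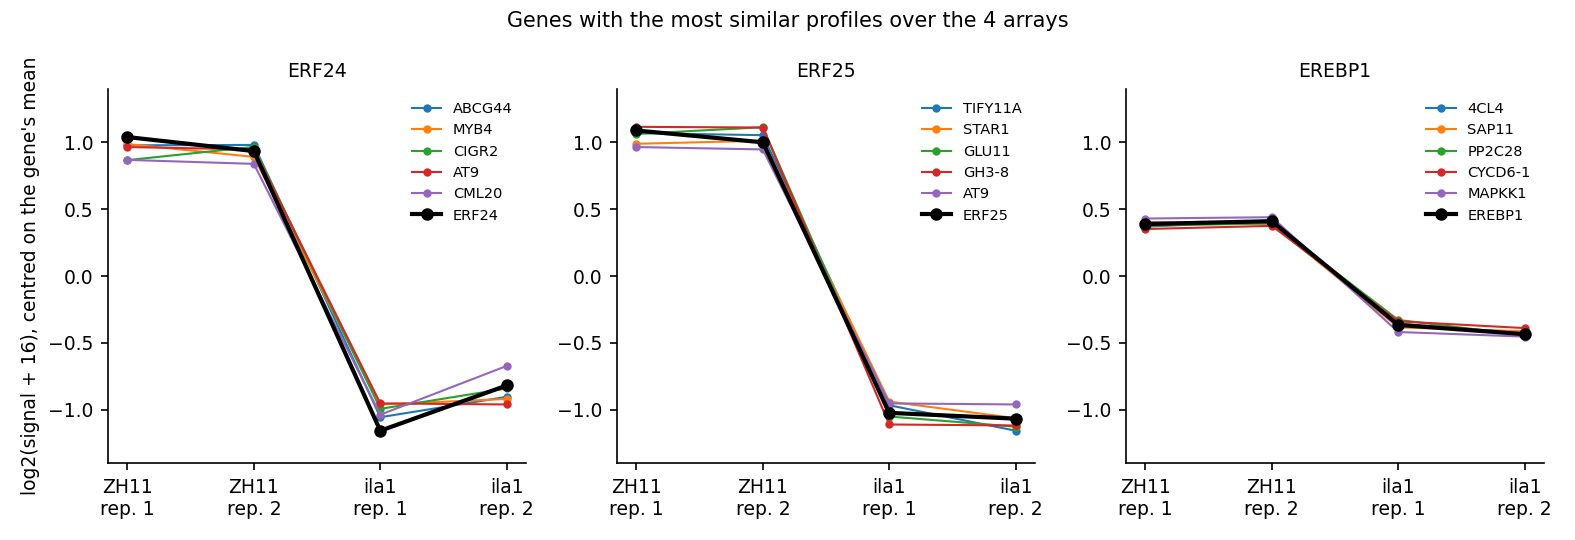
Values of log2(signal + 16) on the 4 arrays, centred on each gene's mean, for ERF24, ERF25 and EREBP1 (black) and the 5 named genes nearest to each. The ERF24 and ERF25 panels span about 2 log2 units between genotypes and the EREBP1 panel about 0.8, and ERF24 is higher on ila1 replicate 2 than on ila1 replicate 1.

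Neighbours on the chromosome, 5 genes to each side in the RefSeq order, were not chosen by their values. Among all tested genes 12.6% were lower and 5.67% higher in ila1, and of the 6 tested neighbours of ERF24, 2 fell. One was DREB1B, which lies 2 genes away with DREB1H, a gene without a probe set here, between them. The other was LOC4347626, a gene without a name 4 genes to the other side, which read 2532 and 2337 in ZH11 and 1294 and 1181 in ila1 (-0.97 ± 0.11, limma adjusted p = 0.00941). None of the 5 tested neighbours of ERF25 passed, the nearest to passing being the zinc finger gene C3H17 (-0.43 ± 0.10, limma adjusted p = 0.0559), which passed when the lowest 60% of probe sets were not tested. Of the 6 tested neighbours of EREBP1, LOC4330939 rose (0.56 ± 0.12, limma adjusted p = 0.0402) and 0 fell. Leaving out either ZH11 array ended these 3 calls.

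**Figure D4:**
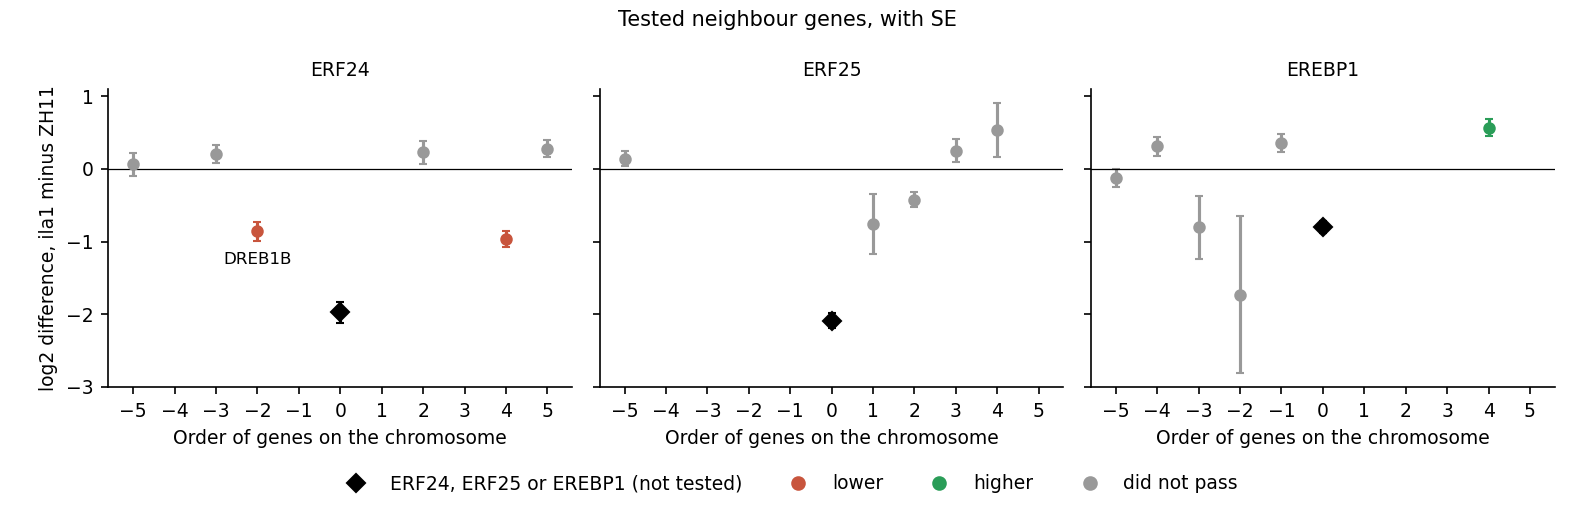
Log2 difference, ila1 minus ZH11, with its SE (n = 2 arrays a genotype), of the tested genes up to 5 genes to each side of ERF24, ERF25 and EREBP1, by their order on the chromosome. DREB1B at -0.86 and LOC4347626 at -0.97 are the 2 neighbours of ERF24 that fell, and both are less negative than ERF24 at -1.98.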

How the data were processed

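For each of 57381 probe sets and 4 arrays the authors deposited a linear intensity. TRIzol-extracted RNA was labelled as biotinylated cRNA, per the labels' protocols. How these intensities were computed and scaled is not given in the sources used here, so scaling was among the alternatives. Groups follow the sample titles.

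From these values, 123 Affymetrix control probe sets were left out, 16 was added, and log2 was taken, so that changes of low signals come out too small. Testing was limited to 34355 probe sets by dropping the dimmest 40% by mean. The test was two-sided, from limma 3.58.1 under R 4.3.3 with a mean-variance trend in eBayes and genotype as the only term, with Benjamini-Hochberg adjustment over all tested probe sets and a threshold of 0.05. The fit was tested on simulated data. The number of arrays limits the precision. Python 3.11.15 with pandas 2.3.3 made the tables, and matplotlib 3.10.9 the plots.

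Genes were named through the platform annotation and the RefSeq table of assembly ASM3414082v1, in which all 17905 genes were found and 2460 have a name. That table gave names, chromosomes and gene order only. Where a gene has several probe sets, the lists use the one with the highest mean. The genes, lists and tests were chosen with earlier results of these data known. Genes named in the text are those of the lists, the 5 nearest by profile and the neighbours. Marker lists of dividing cells (0 of 7 tested fell, 1 rose) and of epidermis (0 of 8 passed) were also counted.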

Additional observations from a re-analysis of the deposited data

How the results depend on the processing

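The genotypes did not overlap, so only scaling could turn the sign of the 4 log2 differences. It did not. Quantile normalization gave -1.75 for ERF24, -1.87 for ERF25, -0.59 for the brighter and 0.18 for the dimmer EREBP1 probe set. Arrays scaled to hybridization controls gave -1.76, -1.87, -0.58 and 0.29 in the same order. Median centring gave -2.02 for ERF25, -0.73 and 0.17 for EREBP1, and a pseudocount of 64 gave -2.02 for ERF25. Relative to the median of all tested probe sets, which was -0.07 as deposited but 0.03 (quantile) and 0.12 (controls) otherwise, ERF24 lay between -1.90 and -1.78, ERF25 between -2.02 and -1.90 and the brighter EREBP1 probe set between -0.73 and -0.62.

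With 1 array left out, the values ranged from -2.15 to -1.81 for ERF24, from -2.13 to -2.05 for ERF25, from -0.84 to -0.77 for EREBP1 and from 0.07 to 0.14 for its dimmer probe set. Of 40 other named probe sets called, 0 kept their call without ZH11 replicate 1 and 1 without ZH11 replicate 2, and all 40 kept it without either ila1 array. The number of calls over all probe sets then ranged from 22 to 14800 (5191 with all arrays), of ethylene genes from 0 to 8 (6) and of AP2/ERF genes from 0 to 8 (5), where the lone array is assumed to vary like the other genotype. The counts of 0 come from the limma fits without a ZH11 array, which rest on the spread of the ila1 pair. Fits without an ila1 array rest on the ZH11 pair, which lay closer (median 0.10 against 0.18). Calls kept in those fits therefore add no support.

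Calls higher and lower in ila1 numbered 1619 and 3572 as deposited, 2928 and 2860 after quantile normalization, 2083 and 3066 after median centring, and 3350 and 2379 with arrays scaled to the controls. Of the 40, 35 kept their call after quantile normalization, 36 after median centring, 33 with arrays scaled to the controls, 38 with no filter, 37 with no trend and all 40 with either other pseudocount. Among genes that did not pass as deposited, the sign changed for ERS1 (0.040) and SIZ1 (0.050) after quantile normalization, and for ERS2 (0.025), ETR3 (0.093) and SIZ1 (0.093) with arrays scaled to the controls. With 1 array left out, ETR3 ranged from -0.33 to 0.098.

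With the replicate block, 4816 probe sets were called instead of 5191, 5 ethylene genes instead of 6 (without EIN2, limma adjusted p = 0.07) and 5 AP2/ERF genes as before, and 35 of the 40 kept their call, while CHT6 passed (limma adjusted p = 0.0401). The labels do not say that a number marks a shared batch or day. Deviations of same-numbered arrays correlated at 0.103 over tested probe sets. Whether same-numbered arrays shared a batch or day was not tested.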
